A study of Mus musculus and Homo sapiens with 12 samples.

Results

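The 9 genes described here encode proteins of the AP-1 transcription factor: the FOS family (FOS, FOSB, FOSL1 and FOSL2), the JUN family (JUN, JUNB and JUND) and the related proteins ATF3 and BATF. They were taken by name, as 9 of 20007 protein-coding genes of GENCODE 44 in human and as the 9 genes of the same name among 21887 protein-coding RefSeq genes in mouse. CUT&Tag libraries of butyryl (Kbu) and acetyl (Kac) histone marks were searched from 10 kb before to 10 kb after each gene. CUT&Tag cuts and tags the DNA around an antibody-bound histone mark, and the authors deposited a list of peaks for each library.

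CCD841 cells, a line from normal human colon epithelium, had been treated with 1 mM sodium butyrate (NaBu) for 12 to 16 h, with 2 libraries for H3K18bu and 2 for H4K12bu. Untreated CCD841 libraries and acetyl libraries of these cells were not analysed here. The mouse libraries came from the large intestine of male CETP-ApoB-100 transgenic mice, 2 mice per condition, whose age is not given in the sources used here. The labels give a high fat, high sucrose diet with 5% arabinoxylan, a dietary fiber, for the 4 Kbu libraries (2 of H3K18bu, 2 of H4K12bu), and the high fat, high sucrose diet alone for the 4 Kac libraries (2 of H3K18ac, 2 of H4K12ac). The methods of the study describe instead a control group kept on a low fat diet, so that the diet of the Kac libraries is uncertain. Acyl group and diet therefore cannot be told apart in mouse. The large intestine holds several cell types, so that fewer cells with a mark and less mark per cell cannot be told apart either.

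AP-1 proteins bind DNA as pairs through a basic leucine zipper. FOS proteins need a JUN partner, whereas JUN proteins can also pair with each other, and the pairs recognise the letters TGACTCA or, for pairs with ATF proteins, TGACGTCA. FOS, FOSB, JUN, JUNB and ATF3 are immediate early genes, which respond to growth factors and stress within minutes, and in the intestine AP-1 is known for its part in proliferation and tumour growth. The promoter of FOS is known for a serum response element, whose core, the CArG box (a run of A and T between CC and GG), binds the factor SRF. Butyryl groups are placed on histone lysines when butyrate is abundant, and like acetyl groups they are found at active promoters and enhancers.

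How much a listed peak can carry differed between the tissues. In CCD841 cells each library listed close to the limit of 300000 peaks that the authors set, namely 299720 and 299691 with the H3K18bu antibody and 299445 and 299296 with the H4K12bu antibody. The pileup of a peak is the number of extended read ends stacked at its summit, solved here from the listed fold and p. The listed fold is the pileup plus 1, divided by the local background plus 1, and so is not the plain ratio of pileup to background. The median peak had a pileup of 15 in H3K18bu replicate 1, 12 in H3K18bu replicate 2, 15 in H4K12bu replicate 1 and 7 in H4K12bu replicate 2. This last library was the shallowest of the 4, and 56.3% of its peaks had q below 0.05, against 100% in each of the other 3. In mouse the Kac libraries listed between 299623 and 299861 peaks with a median pileup of 1 or 2. The Kbu libraries listed fewer (60813 and 50675 with H3K18bu, 50932 and 96432 with H4K12bu), with a median pileup of 1 in each. A pileup of 1 is a single read end at the summit, so that its counting error is as large as the value. Such a peak can hold further read ends beside the summit. The lists give no total of reads per library.

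Overlapping peaks of a library were merged to regions, and a region was called shared when a stretch of the merged lists of both replicates held a peak of each. A region was placed at the start if it came within 1 kb of the transcription start site, else in the body if it touched the gene, else in the flank. With 2 libraries per mark the smallest p of an exact test of one mark against another is 0.333, so that counts by mark are given without a test.

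The sequences under the start regions are shown first, because the shared H3K18bu region of FOS ended before the start site. In replicate 2 alone its peak lay over letters known to bind SRF. Bases are counted from the start site, minus meaning before it, and capitals mark matches to TGACTCA, TGACGTCA, TGACATCA (a variant letter string, added after the JUN sequence had been read) or the CArG box, searched on both strands. The first line is the whole shared H3K18bu region of FOS (chr14:75278394-75278597, plus strand, GRCh38), from -434 to -231.
FOS: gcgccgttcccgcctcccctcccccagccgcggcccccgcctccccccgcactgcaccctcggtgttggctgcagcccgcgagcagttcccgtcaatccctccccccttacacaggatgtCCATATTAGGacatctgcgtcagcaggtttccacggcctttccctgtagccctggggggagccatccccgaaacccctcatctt

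FOS carried 1 CArG box from -314 to -305, and the summits of the H3K18bu peaks in this region lay at -269 in replicate 1 and at -270 in replicate 2. Replicate 1 alone listed a second start peak at FOS, with its summit at 93 past the start and a pileup of 14. A CArG box stood between -434 and -231 in 0.99% of 20007 human genes. The summits of the 2 replicates agreed within 1 bp and lay beside, not over, these letters. The replicate 1 peak (chr14:75278524-75278597) began just past the CArG box, and the replicate 2 peak (chr14:75278394-75278597) covered it.

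The next lines show bases before the start of JUN (chr1:58784049-58784298, minus strand), JUND (chr19:18281623-18281872, minus strand) and ATF3 (chr1:212608420-212608669, plus strand), genes whose shared H3K18bu regions reached across the start site. None of these bases is an exon of the gene in GENCODE 44, and the last line is the mouse gene Atf3 (chr1:191183334-191183583, minus strand, RefSeq, GRCm38.p6).
JUN: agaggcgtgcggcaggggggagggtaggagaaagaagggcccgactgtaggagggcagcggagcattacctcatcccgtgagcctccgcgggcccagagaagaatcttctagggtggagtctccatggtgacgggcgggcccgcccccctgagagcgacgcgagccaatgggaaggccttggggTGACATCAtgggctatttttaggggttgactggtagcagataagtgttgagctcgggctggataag
JUND: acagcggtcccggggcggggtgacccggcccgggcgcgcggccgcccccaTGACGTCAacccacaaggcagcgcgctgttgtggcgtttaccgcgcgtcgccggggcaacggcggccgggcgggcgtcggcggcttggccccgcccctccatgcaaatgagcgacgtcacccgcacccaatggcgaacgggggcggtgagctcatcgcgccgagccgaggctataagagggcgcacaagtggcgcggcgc
ATF3: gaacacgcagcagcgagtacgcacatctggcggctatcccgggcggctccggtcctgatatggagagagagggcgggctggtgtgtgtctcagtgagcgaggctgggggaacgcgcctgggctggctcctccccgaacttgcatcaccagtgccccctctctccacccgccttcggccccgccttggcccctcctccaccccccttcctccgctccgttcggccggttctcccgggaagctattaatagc
Atf3: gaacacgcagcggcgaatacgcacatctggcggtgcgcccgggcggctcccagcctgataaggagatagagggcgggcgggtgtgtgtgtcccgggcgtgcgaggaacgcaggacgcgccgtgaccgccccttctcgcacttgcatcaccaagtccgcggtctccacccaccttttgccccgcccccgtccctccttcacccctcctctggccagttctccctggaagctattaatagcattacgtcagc

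JUN had TGACATCA from -67 to -60, and mouse Jun had the same letters from -45 to -38. These letters stood in the window of JUN in 1.93% of human genes and within 250 bases before the start in 2.89% of 17492 mouse genes. JUND had TGACGTCA from -200 to -193, as did 2.41% of human genes in that window. ATF3 had no match in its window, and the human and the mouse gene shared a run of 27 bases, ggaagctattaatagcattacgtcagc, from -107 to -81 in human and from -27 to -1 in mouse. For FOSL1 and FOSL2 the letters lay at the start site itself, and they are shown with 11 bases on either side.
FOSL1: cacggcgcgggTGAGTCAgaacccagcag
FOSL2: tgccattgtagTGACTCAtctcgggcaga

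The FOSL1 match ran from -1 to 5 and the FOSL2 match from 4 to 10, where 0 is the first transcribed base. The whole printed stretches are chr11:65900372-65900400 (FOSL1, minus strand) and chr2:28392851-28392879 (FOSL2, plus strand). Within 301 bases around their middle, 5 of the 26 shared H3K18bu regions of the 9 genes held TGACTCA, against 11% of all 108536 shared H3K18bu regions. For the CArG box the number was 2 of 26 against 1.37%, for TGACGTCA 2 of 26 against 0.308% and for TGACATCA 1 of 26 against 1.43%. All of these regions with the CArG box, TGACGTCA or TGACATCA lay at starts, whereas the shares over all regions include those away from starts. Of the 11 shared H4K12bu regions 2 held TGACTCA, against 8.62% of all 90476, and 1, at the start of JUN, held TGACATCA, against 1.17%. None of the 11 held TGACGTCA, against 0.191%, or the CArG box, against 1.21%. Such a match is a description of the sequence and not of binding.

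In CCD841 cells H3K18bu was found near every AP-1 gene. All 9 had a shared H3K18bu region within 10 kb, against 75.9% of all genes, and 7 of the 9 (FOS, FOSB, FOSL1, FOSL2, JUN, JUND and ATF3) had one at the start, against 32.7% of all genes. H4K12bu reached fewer of them: 6 of 9 had a shared region within 10 kb, against 76.6% of all genes, and 2 of 9 (FOSL2 and JUN) had one at the start, against 14.9%. Both marks at the start were found for FOSL2 and JUN, and for 11.6% of all genes. The H4K12bu start peak of JUN in replicate 2 had a -log10 q of 1.26, short of q 0.05, so that FOSL2 alone kept the call at that threshold. The members' regions numbered 26 for H3K18bu (7 at starts, 9 in bodies, 10 in flanks) and 11 for H4K12bu (2, 5 and 4). This came to 0.826 shared H3K18bu regions per 10 kb of searched sequence, against 0.476 over all genes, and to 0.349 for H4K12bu, against 0.511.

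With q below 0.05 required, 3 of 9 genes kept a shared H4K12bu region and 9 of 9 a shared H3K18bu region. Without the shallow H4K12bu replicate 2 no shared region can be had, but each library can be read alone. H4K12bu replicate 1 alone listed regions near 7 genes and at 2 starts, and replicate 2 alone near 9 genes and at 4 starts. H3K18bu replicate 1 alone listed them near 9 genes and at 7 starts, and replicate 2 alone near 9 and at 9. The part of H4K12bu replicate 2 in the lower shared counts was not tested further. Among genes no longer than the longest member, ATF3 with 55444 bp, 69.5% had a shared H3K18bu region and 70.1% a shared H4K12bu region.

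**Figure D1:**
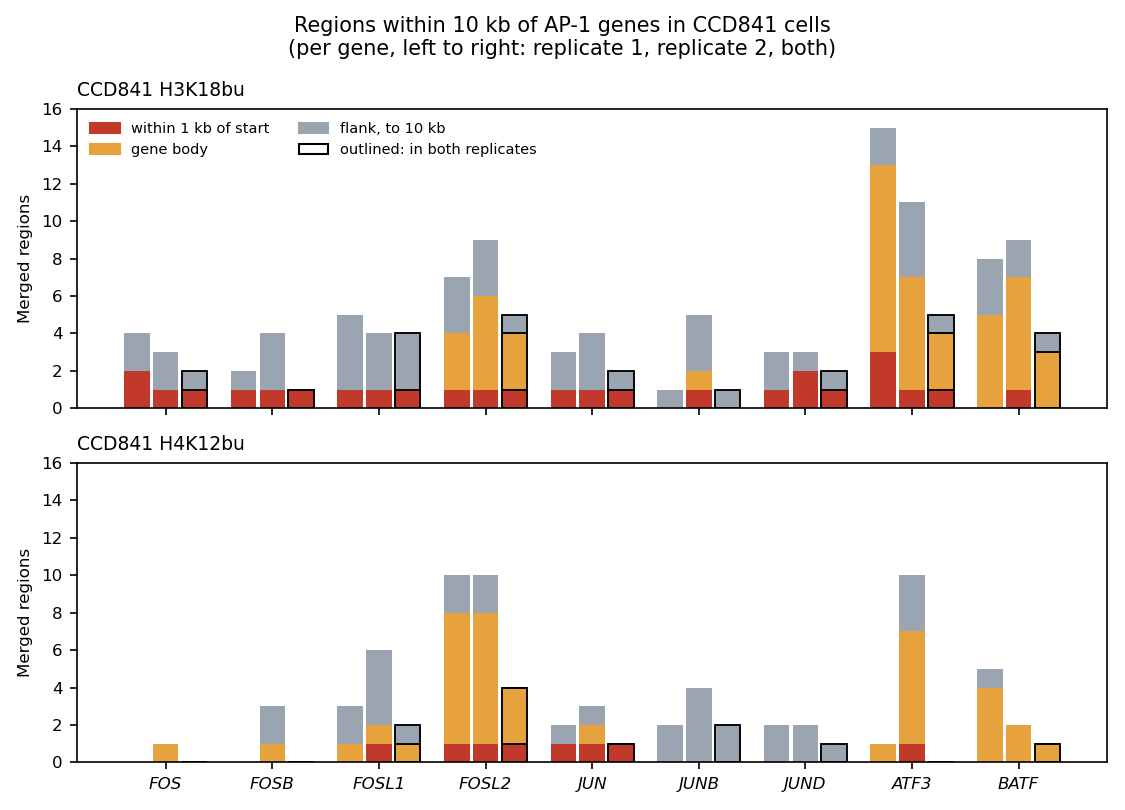
Merged regions (vertical axis, number) within 10 kb of each AP-1 gene (horizontal axis) in CCD841 cells, for replicate 1, replicate 2 and, outlined, both. H3K18bu had 26 shared regions over the 9 genes, 7 of them at starts (red), and H4K12bu had 11, 2 of them at starts.

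Among the JUN family, JUN, the best known partner of FOS, carried the H3K18bu start peak with the highest pileup of the 9 genes, while for H4K12bu that of FOSL2 was higher. With the H3K18bu antibody the JUN start peak had pileups of 45 and 33, at listed folds of 8.93 and 6.32. With the H4K12bu antibody its pileups were 13 and 5, at listed folds of 4.78 and 3.31. In each library the genes were ranked by their highest -log10 p at the start, and the share of genes below a gene is called its start percentile. JUN lay at 99.4 and 97.4 for H3K18bu and at 87.0 and 76.0 for H4K12bu. In the H4K12bu libraries 28.4 and 27.9% of genes had a start peak, so that any listed start peak ranked in the upper part of the list. The shared H3K18bu region of JUN ran from -564 to 301 and the shared H4K12bu region from -366 to 232. JUND, which is expressed more steadily than JUN, had H3K18bu pileups of 12 and 11 at its start and no H4K12bu start peak in either library.

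JUNB, often a brake on JUN, had no shared region at its start, since a start peak was listed in H3K18bu replicate 2 alone, with a pileup of 10. It had one further upstream instead (chr19:12784761-12785276, GRCh38), between -6725 and -6210, where all 4 libraries held a peak. The summits lay at -6425 and -6424 for H3K18bu and at -6416 and -6414 for H4K12bu, with pileups of 14, 14, 12 and 6. In all 4 libraries this was the strongest peak within 10 kb of JUNB, and the middle 250 bases of the region overlapped an exon of a noncoding gene and held none of the letters searched.

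Among the FOS family, FOSL2, which encodes FRA2, had the most even marking. At its start H3K18bu had pileups of 31 and 23 and H4K12bu of 14 and 8, and its start percentile was 95.5, 88.6, 89.0 and 93.1. FOSL1, which encodes FRA1, followed with pileups of 21 and 19 for H3K18bu, and in H4K12bu a start peak was listed in replicate 2 alone with a pileup of 6. FOS had pileups of 16 and 11 and FOSB of 10 and 10 for H3K18bu, and neither had an H4K12bu start peak. FOS and FOSB also had no shared H4K12bu region anywhere within 10 kb. H4K12bu replicate 1 held no peak at all near these genes, and replicate 2 held 1 near FOS and 3 near FOSB.

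ATF3, a stress-induced repressor and activator, had H3K18bu pileups of 33 and 28 at its start, with start percentiles of 97.7 and 96.8. For H4K12bu a start peak was listed in replicate 2 alone, with a pileup of 6. Replicate 1 held 1 H4K12bu region near ATF3 and replicate 2 held 10, and none was shared. BATF, best known from lymphocytes, had a start peak in H3K18bu replicate 2 alone, with a pileup of 14 at -596. Its shared regions began just past the start window, between 1345 and 1835 for H3K18bu and between 1442 and 1847 for H4K12bu.

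**Figure D2:**
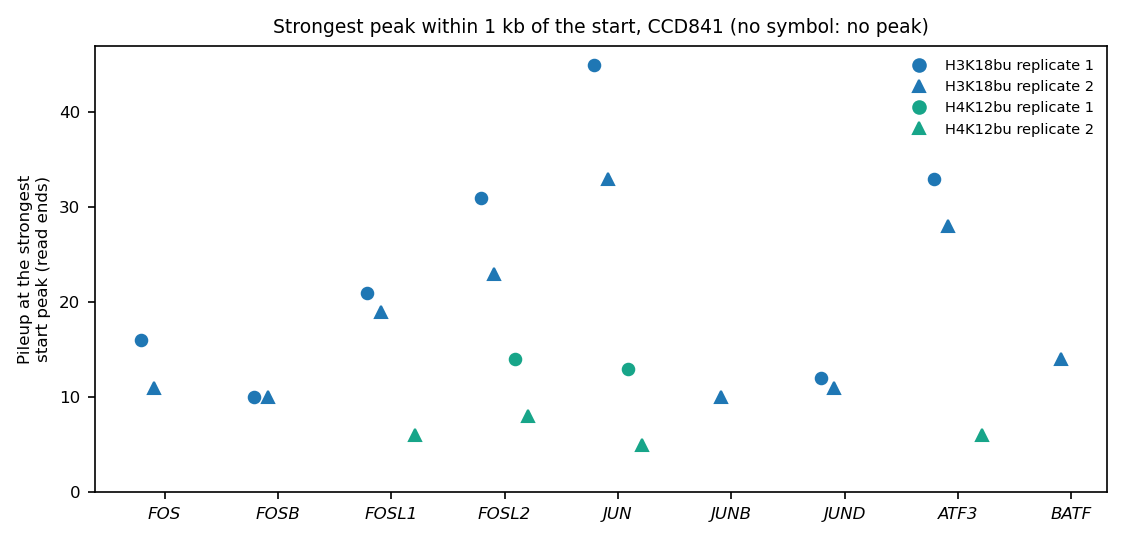
Pileup in read ends (vertical axis) of the strongest peak within 1 kb of the start of each AP-1 gene (horizontal axis) in the 4 CCD841 libraries, 1 symbol per library. JUN, ATF3 and FOSL2 stood highest for H3K18bu, and FOSL2 and JUN alone had an H4K12bu start peak in both replicates.

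Ordered by the mean start percentile over the 4 CCD841 libraries, the genes were FOSL2 (91.6), JUN (89.9), ATF3 (79.9), FOSL1 (70.9), JUND (55.7), FOS (53.4), FOSB (50.7), BATF (43.9) and JUNB (38.5). For H3K18bu alone JUN (98.4) and ATF3 (97.2) stood before FOSL2 (92.1). Genes with no start peak share a middle rank, 29.0 and 26.3 in the H3K18bu libraries and 35.8 and 36.1 in the H4K12bu libraries, and JUND, FOS, FOSB, BATF and JUNB had that rank in both H4K12bu libraries. For H3K18bu alone the replicates ranged from 75.1 to 75.6 in JUND, from 62.2 to 79.6 in FOS and from 63.0 to 68.0 in FOSB, so that FOS overlapped both of its neighbours while JUND and FOSB did not overlap each other. JUN and FOSL2 also overlapped over the 4 libraries, with ranges of 76.0 to 99.4 and 88.6 to 95.5.

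Away from the starts, the bodies of FOSL2 and BATF held shared regions of both marks, that of ATF3 held H3K18bu regions and that of FOSL1 an H4K12bu region. FOSL2 had 3 H4K12bu regions in its body, and these had the highest pileups among the 11 shared H4K12bu regions of the 9 genes. The region from 18193 to 18651 past the start (chr2:28411051-28411509) had pileups of 47 and 22, with listed folds of 4.32 and 4.33. The one from 16327 to 16444 had 36 and 17 (listed folds of 3.04 and 3.20), and the one from 20604 to 20945 had 31 and 15 (listed folds of 3.50 and 3.46). The local background was high here, at 8.13 to 11.2 read ends in replicate 1, and the folds of these 2 regions were among the lower ones of the 11 in replicate 1. The last 2 lay over shared H3K18bu regions, whereas the first met no H3K18bu peak. FOSL1 had a shared H3K18bu region upstream of its start (chr11:65902885-65903495), from -3107 to -2497, with pileups of 18 and 27, in replicate 2 stronger than its start peak. ATF3 had 3 shared H3K18bu regions in its body, all upstream of the canonical start and within longer transcripts, with pileups of 17 and 11, 11 and 14, and 21 and 19. BATF had a shared H3K18bu region near its end, from 19401 to 20551, with pileups of 26 and 22.

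Some flank regions lay at the starts of other genes and are given for their place only. Near FOSL1 2 shared H3K18bu regions lay at the starts of FIBP and CCDC85B, and near JUND regions of both marks lay at the start of IQCN. Of the 26 shared H3K18bu regions of the 9 genes 15 met an H4K12bu peak of either replicate, against 64.3% of all shared H3K18bu regions, and of the 11 shared H4K12bu regions 9 met an H3K18bu peak, against 61.8%.

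**Figure D3:**
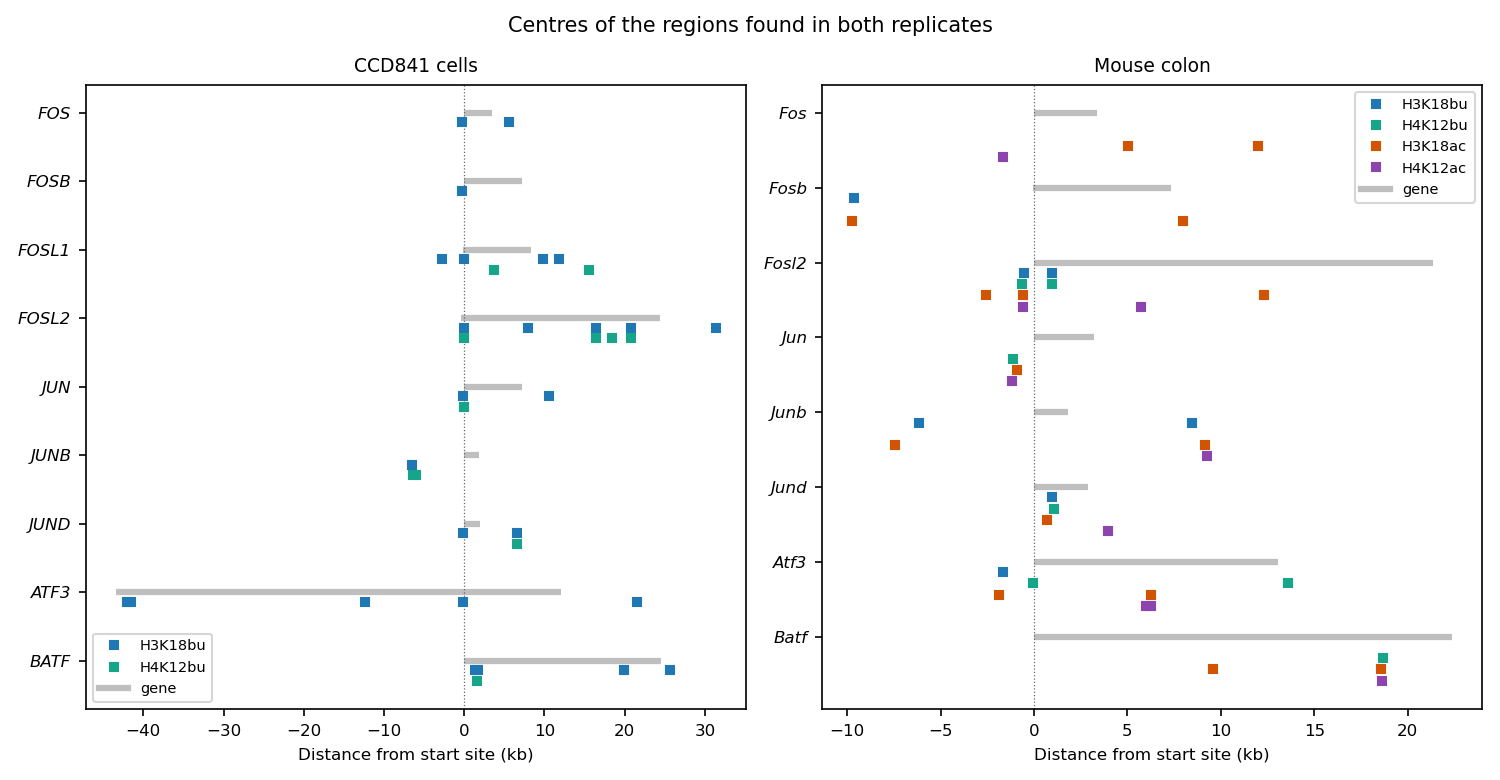
Centres of the shared regions by distance from the start site in kb (horizontal axis), 1 row per AP-1 gene and 1 colour per mark, with the gene as a grey bar, in CCD841 cells (left) and in mouse colon for the 8 genes with a start site (right). H3K18bu lay at the start in 7 genes of CCD841 cells, and the regions upstream of JUNB carried both marks.

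In mouse colon the shared regions of the same genes had pileups of 1 to 7, against 5 to 47 in CCD841 cells. Shared H3K18bu regions within 10 kb were found for 5 of the 9 genes, against 20.5% of all genes, and shared H4K12bu regions for 6 of 9, against 33.7%. For the acetyl marks 8 of 9 genes had a shared H3K18ac region, against 58.7% of all genes, and 7 of 9 a shared H4K12ac region, against 61.4%. The 9 genes together had 7 shared regions of H3K18bu, 8 of H4K12bu, 15 of H3K18ac and 9 of H4K12ac. Per 10 kb of searched sequence this was 0.265 (H3K18bu), against 0.0488 over all genes. The other marks gave 0.303 against 0.0764 (H4K12bu), 0.569 against 0.233 (H3K18ac) and 0.341 against 0.237 (H4K12ac). Among mouse genes no longer than the longest member, Batf with 22368 bp, the density was 0.0662 for H3K18bu, 0.137 for H4K12bu, 0.273 for H3K18ac and 0.279 for H4K12ac, and 13.8, 27.5, 46.8 and 47.7% of these genes had a shared region.

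These mouse Kbu regions rested on few read ends. Of the 129 Kbu peaks near the members 114 had a pileup of 1, and 1 peak, near Junb, had q below 0.05. With q below 0.05 required no gene kept a shared Kbu region, and with a pileup of at least 2 required 1 of 9 genes kept one for H3K18bu and 1 of 9 for H4K12bu. Of the 201 Kac peaks near the members 33 had a pileup of 1, whereas 36 passed q below 0.05. At that threshold 2 of 9 genes kept a shared region for each acetyl mark.

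**Figure D4:**
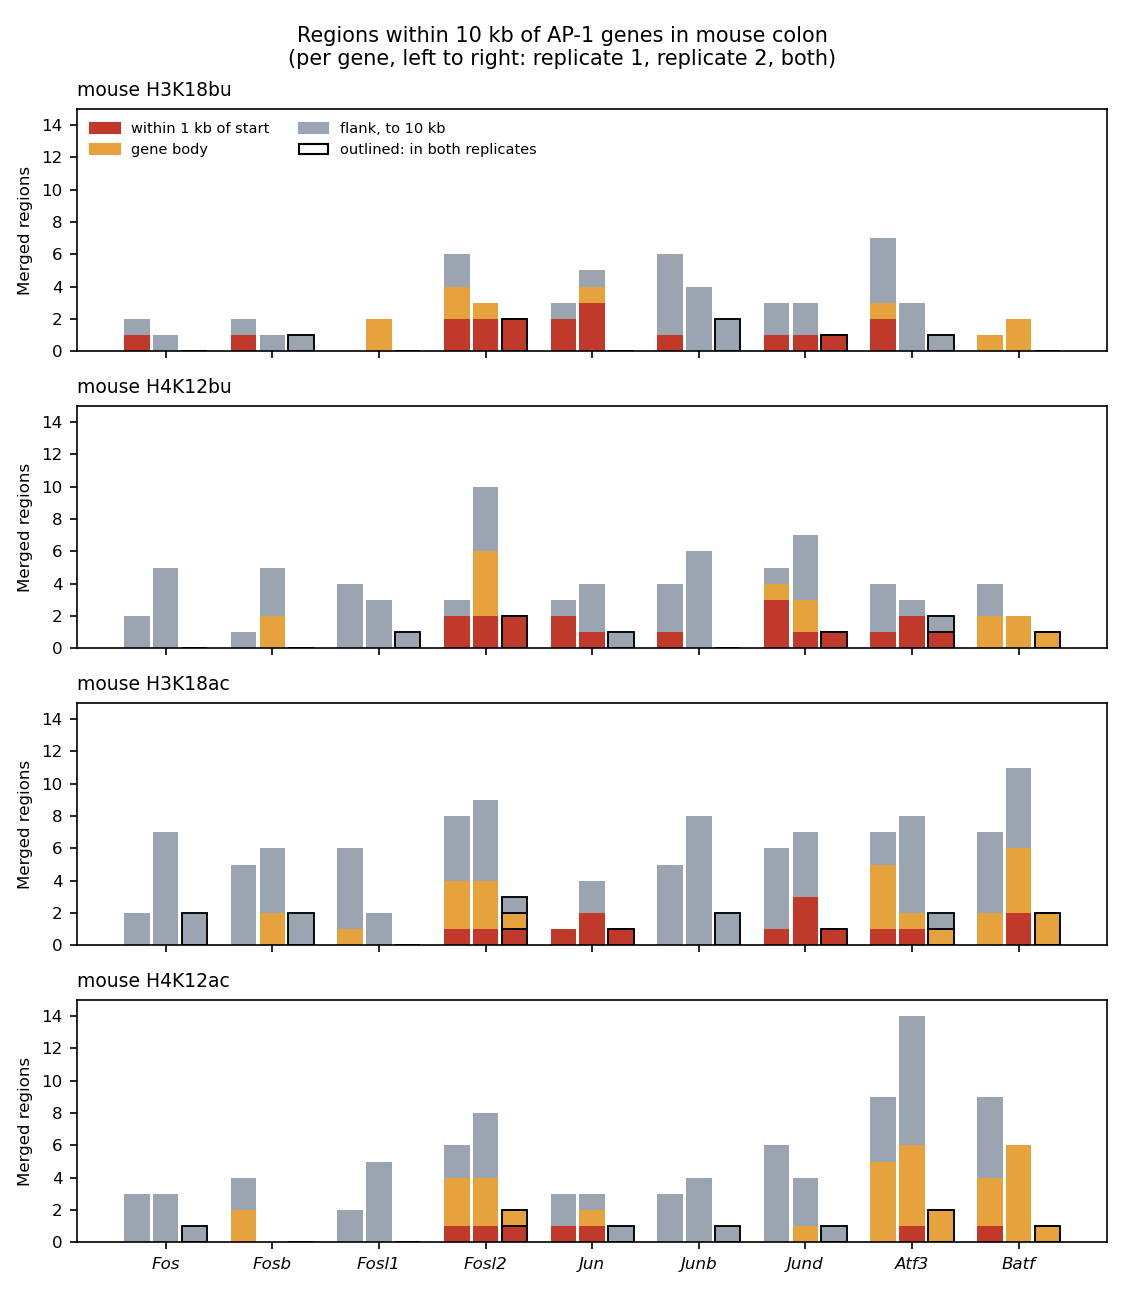
Merged regions (vertical axis, number) within 10 kb of each AP-1 gene (horizontal axis) in mouse colon, for replicate 1, replicate 2 and, outlined, both, 1 panel per mark. Fosl2 had shared start regions (red) for all 4 marks, and Fos had none at its start for any mark.

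Start sites were given for 8 of the mouse genes, all but Fosl1. Shared start regions were found for Fosl2 and Jund with H3K18bu (2 of 8, against 6.49% of all genes), for Atf3, Fosl2 and Jund with H4K12bu (3 of 8, against 16%), for Fosl2, Jun and Jund with H3K18ac (3 of 8, against 22.6%) and for Fosl2 with H4K12ac (1 of 8, against 26.4%). Fos, Fosb, Junb and Batf had no shared start region for any mark. FOSL2 was the one gene of the 9 with a shared start region for every mark of both species, as were 71 of 12603 genes of the same name in both (0.563%), a rule chosen after the values had been seen.

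Mouse Fosl2 had its start regions in 2 places. All 4 marks held one before the start (chr5:32135656-32136046 for H4K12bu, GRCm38), between -816 and -367 in all, with pileups of 4 and 6 (H3K18ac), 2 and 4 (H4K12ac), 1 and 1 (H3K18bu) and 1 and 3 (H4K12bu). Both Kbu marks held a second one past the start, from 891 to 1075 for H3K18bu and from 834 to 1075 for H4K12bu, where neither acetyl list held a peak. Each peak of this second place had a pileup of 1.

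Mouse Jun had shared regions about 1 kb before its start (chr4:95053247-95053491 for H4K12bu). The H3K18ac region ran from -1396 to -470 with pileups of 7 and 7, the H4K12ac region from -1309 to -1010 with pileups of 4 and 6, and the H4K12bu region from -1269 to -1025 with pileups of 2 and 2. The last 2 ended just outside the start window and were counted in the flank. H3K18bu had start peaks at Jun in both replicates with pileups of 1 and 1, but these did not overlap each other.

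Jund had Kbu regions just inside the gene, from 830 to 1055 for H3K18bu with pileups of 1 and 1 and from 922 to 1205 for H4K12bu with pileups of 1 and 2. Neither acetyl list held a peak under them, and acetyl peaks too weak for these cut lists would not be seen. Its H3K18ac region lay closer to the start, from 600 to 798, with pileups of 3 and 3. Atf3 had an H4K12bu region across its start, from -298 to 168 (chr1:191183165-191183631), with pileups of 1 and 2, over the bases printed above. Further upstream Atf3 had H3K18ac from -1969 to -1736 with pileups of 6 and 5, and H3K18bu from -1955 to -1399 with pileups of 1 and 2.

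Some distances resembled those in CCD841 cells. Mouse Junb had a shared H3K18bu region from -6378 to -5953 (chr8:84984701-84985126) with pileups of 2 and 4, beside the human region at -6725 to -6210. Mouse Batf had regions of H4K12bu, H3K18ac and H4K12ac between 18218 and 19055 with pileups of 1 and 3, 4 and 3, and 4 and 5, beside the human H3K18bu region from 19401 to 20551. Whether these are the same element in both species was not tested, since no genome alignment was used.

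For the comparison of the mouse Kbu with the Kac libraries the start percentile was used, because the lists differed in depth. The percentile does not remove the difference in list length. In the Kbu libraries 21.1 to 42.2% of genes had a start peak, so that a gene with a single read end already ranked high, whereas in the Kac libraries 46.8 to 55.5% had one. Kbu and Kac percentiles therefore are values within their own lists, and a difference between them cannot be told apart from list length. Jun had start percentiles of 77.9 and 79.3 (H3K18bu), 72.1 and 86.4 (H4K12bu), 98.1 and 94.3 (H3K18ac) and 71.2 and 68.9 (H4K12ac). Jun thus was highest in both H3K18ac libraries, and the means of 78.9 ± 5.88 (SD, n = 4 libraries from 2 mice) for Kbu and 83.2 ± 15.2 (SD, n = 4 libraries from 2 mice) for Kac overlapped. Fosl2 had 77.1, 83.6, 71.6 and 91.3 in the Kbu libraries and 80.2, 88.2, 58.5 and 73.9 in the Kac libraries, which overlapped as well.

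Jund had 79.2, 83.6, 72.1 and 84.6 in the Kbu libraries and 73.3 and 65.1 in the H3K18ac libraries, and the H4K12ac libraries listed no start peak (ranks 26.6 and 22.3). All Kbu values but 1 lay above all Kac values, with a difference in means of 33.1 (two-sided exact permutation p = 0.0571, Benjamini-Hochberg adjusted p = 0.205 over all 17492 genes and 0.547 over the 14076 with a start peak in any library). Its Kbu start peaks had pileups of 1, 1, 1 and 2 and its H3K18ac start peaks of 3 and 4. The marks with the higher percentiles thus had the lower pileups. Atf3 had start peaks in 3 of the 4 Kbu and 3 of the 4 Kac libraries, with a difference of 13.7 (exact permutation p = 0.371). Fos and Fosb had a start peak in 1 Kbu library each, Junb in 2, and none of the 3 in a Kac library. Batf had none in a Kbu library and at least 1 in 2 of the 4 Kac libraries.

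Of these genes 3, namely Fos, Fosb and Junb, had all Kbu percentiles above all Kac percentiles, against 4.72% of 14076 genes with a start peak in any library, and none had all below, against 3.25%. The differences were 21.4, 23.4 and 30.7, each with a two-sided exact permutation p = 0.0286, the smallest that 70 assignments allow, and an adjusted p of 0.110 over all genes or 0.358 over the 14076 genes with a peak. Without replicate 1 the differences were 9.94 for each of the 3. No replicate 2 library listed a start peak of these genes, so that 9.94 is the gap between the ranks of genes without a peak. Without replicate 2 the differences were 32.9, 36.8 and 51.5. Within 3 kb of the start the exact permutation p was 0.571, 0.200 and 0.0571, and at both gene ends 0.171, 0.686 and 0.0286. The separation also depended on how genes without a peak were ranked, since their middle rank was 28.9 to 39.5 in the Kbu and 22.3 to 26.6 in the Kac libraries. With such genes set to 0 none of the 8 genes stood apart, against 0.931% of genes above and 3.25% below, and the exact permutation p of Fos, Fosb and Junb was 1, 1 and 0.429. Over all 17492 genes none had an adjusted p below 0.05, and 4538 had an unadjusted exact p below 0.05. Of these 3416 had no start peak in any library and reached that p through the shared rank alone, and 1122 had a peak. The 4 Kbu libraries came from 2 mice, as did the 4 Kac libraries, so that p-values over libraries are too small.

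**Figure D5:**
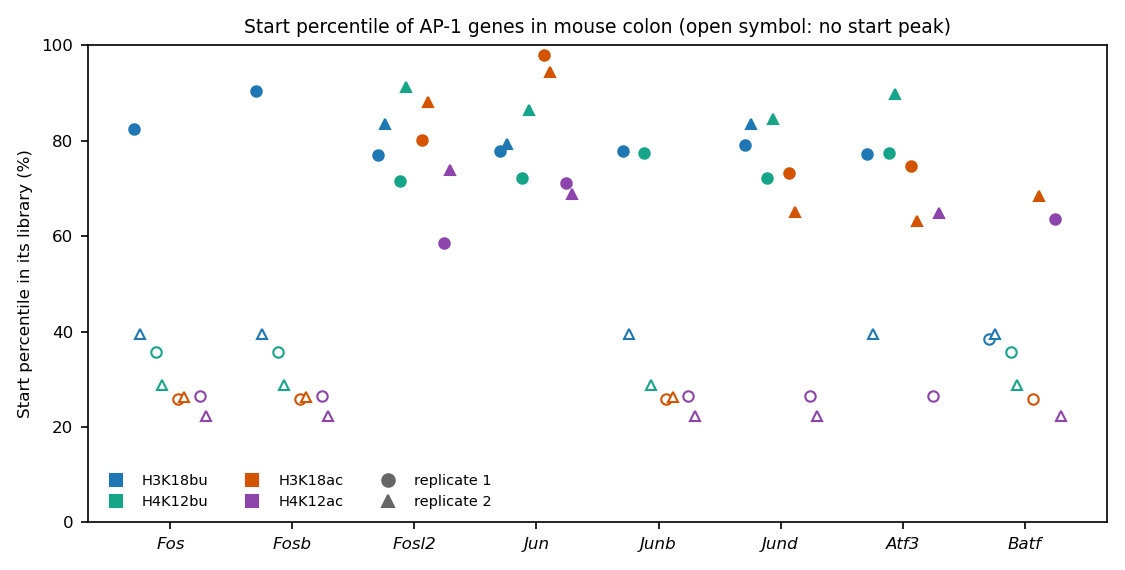
Start percentile in its library (vertical axis, %) of the 8 AP-1 genes with a start site (horizontal axis) in the 8 mouse libraries, with open symbols where the library listed no start peak. Jun, Fosl2 and Jund had a start peak in all 4 Kbu libraries, and the points of Fos, Fosb and Junb were mostly open.

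Other genes of the pathway were read in the same way in CCD841 cells. Of 11 further leucine zipper genes 4 had a shared H3K18bu start region and 2 a shared H4K12bu start region, led by ATF2, a partner of JUN (mean start percentile 95.8), ATF7 (92.2) and NFE2L2, the regulator of the oxidative stress response (80.9). Of 10 kinases and factors upstream of FOS and JUN 3 had an H3K18bu and 1 an H4K12bu start region, led by ELK1, which binds with SRF (85.2), CREB1 (74.5) and the kinase gene MAPK8 (63.6). Of 8 other immediate early genes 5 had an H3K18bu start region and none an H4K12bu start region, led by DUSP1, a phosphatase of MAP kinases (74.0), IER5 (72.5) and EGR2 (61.1). Of 10 genes often cited as AP-1 targets 3 had an H3K18bu start region and none an H4K12bu start region, led by CD44, a cell surface receptor for hyaluronan (87.3). The share with H3K18bu thus was 7 of 9 for AP-1 genes and 5 of 8 for other immediate early genes, beside 32.7% of all genes, and the difference between lists was not tested. The H4K12bu counts of these lists are to be read beside 14.9% of all genes, at which few or none of so few genes have such a region.

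In mouse the list of upstream kinases and factors, with 8 start sites, had shared start regions in 1 gene for H3K18bu (against 6.49% of all genes), 3 for H4K12bu (16%), 3 for H3K18ac (22.6%) and 2 for H4K12ac (26.4%). Mapk9 had one for each of the 4 marks, with start percentiles of 90.6 (H3K18bu), 75.0 (H4K12bu), 76.4 (H3K18ac) and 81.6 (H4K12ac) as means of 2 libraries, and was named after its values had been seen. Of 5 immediate early genes with a start site none had a shared start region of H3K18bu, 1 of H4K12bu, 2 of H3K18ac and 1 of H4K12ac, to be read beside the same shares of all genes.

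Markers of cell types were read for their marks, which are no measure of expression. In CCD841 cells 2 of 9 epithelial genes, 2 of 8 mesenchymal genes and 2 of 5 immune genes had a shared H3K18bu start region, and 1, 2 and 2 a shared H4K12bu start region. Over all genes the shares were 32.7% and 14.9%, and so few markers do not check the label of the line. In mouse colon 3 of 6 epithelial genes with a start site (Cdx2, Krt8 and Vil1) had a shared H3K18bu start region, against 6.49% of all genes, and none of the 6 had a shared H4K12bu start region, against 16%. These 3 genes were named after their values had been seen. With the acetyl marks 3 of the 6 epithelial genes had a shared H3K18ac start region, against 22.6% of all genes, and 2 a shared H4K12ac start region, against 26.4%. None of 4 mesenchymal and none of 2 immune genes had a start region of either Kbu mark. For H3K18ac 1 of the 4 mesenchymal genes had one and no immune gene, and for H4K12ac none of either list.

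The genes most like FOSL2, the member with the highest mean start percentile in CCD841 cells, were SOWAHC, RPIA and APAF1. Their start percentiles differed from that of FOSL2 by 5.16, 6.23 and 6.81 on average over the 12 libraries, while the median of the 9940 genes compared was 34.9.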

How the data were processed

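CUT&Tag peak lists of 12 libraries, 2 for each of 6 groups, were used as deposited. Per the labels and methods, the authors trimmed reads with cutadapt 1.9.1, aligned them with Bowtie2 2.3.1 to hg38 or mm10 and called peaks on each library alone with MACS2 2.1.0 (p below 0.01, at most 300000 peaks, blacklisted regions removed). In the deposited lists the fold of the summit, the -log10 p and -log10 q and a display score were written by MACS2, run by the authors. This listed fold is the one defined above and not the plain ratio of summit to local background. No count per gene was used here, and the score was not used.

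Pileup and background were solved from fold and -log10 p within 0.01. Windows were the gene with 10 kb on either side and the start site with 1 kb on either side. Human start sites were those of Ensembl canonical transcripts (GENCODE 44), and mouse start sites those of RefSeq promoters (GRCm38.p6) for 17492 of 21887 genes, 8 of the 9 members included. The start percentile was tested for every mouse gene by a two-sided exact permutation test (70 assignments) with Benjamini-Hochberg adjustment. Analyses used Python 3.11.15, pandas 2.3.3 and scipy 1.17.1, and the pileup and permutation steps were tested on simulated data. The labels number the replicates of each group and do not tie a number to a mouse.

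All 9 members were named, and from every other list at most 3 genes with the highest mean start percentile over the 4 CCD841 libraries. Mapk9 and the mouse epithelial genes were named outside this rule, after their values had been seen. Members and lists were chosen with earlier results of these data known. The alternatives were q, pileup, window, overlap, replicate and percentile settings. The sequence under the start region of FOSB is not reported here.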

Additional observations from a re-analysis of the deposited data

Results flagged for a closer look

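For mouse Jun the difference between Kbu and Kac start percentiles pointed in opposite directions at the 2 residues. It was -17.6 at H3K18, where both Kbu libraries lay below both Kac libraries, and 9.19 at H4K12, where both lay above, a gap of -26.8 between residues. The gap itself was not tested. The percentiles come from lists of different length. In H4K12bu replicate 1, where 28.7% of genes had a start peak, the Jun peak had a pileup of 1 and a percentile of 72.1, beside 71.2 and 68.9 in the H4K12ac libraries at pileups of 3 and 4, so that the direction at H4K12 cannot be told apart from list length.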

How the results depend on the processing

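In all, 28 results were recomputed under 288 alternatives, of which 171 gave a count within 1.5 times or a difference of the same sign and side of the threshold, 99 gave a count that moved further, 11 differences of unchanged sign passed an adjusted p of 0.05 and 7 of 96 differences changed sign. The counts below are of genes with a shared region (G), genes with a shared start region (S) and shared regions (R), and causes were not tested. With q below 0.05, CCD841 H4K12bu had G 3 and S 1, both mouse Kbu marks had 0 for G, S and R, mouse H3K18ac had G 2, S 1 and R 2, and H4K12ac had G 2, S 0 and R 2. With q below 0.01, CCD841 H4K12bu had G 1, S 1 and R 4, and all 4 mouse marks had 0. With a pileup of at least 2, each mouse Kbu mark had G 1, S 0 and R 1. With equal numbers of strongest peaks, mouse H3K18bu had G 2, S 0 and R 3, H4K12bu R 5, H3K18ac R 8 and H4K12ac G 2, S 0 and R 2. In the gene body alone, G was 2 for mouse H3K18bu, 4 for H3K18ac and 3 for H4K12ac, and within 5 kb 3 for H3K18bu. For mouse H4K12ac S was 3 within 3 kb, 2 at both gene ends and 0 with the stricter overlap, and for mouse H3K18bu S was 1 within 500 bp. With every listed peak counted, R was 94 and 28 in CCD841 (H3K18bu, H4K12bu) and 15, 16, 34 and 18 in mouse (H3K18bu, H4K12bu, H3K18ac, H4K12ac).

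With a peak in either replicate enough, R was 71 and 55 in CCD841 and 46, 67, 90 and 83 in mouse in the same order, S was 4 for CCD841 H4K12bu and 7, 5, 5 and 4 in mouse, and G was 9 for mouse H3K18bu. With 1 replicate left out, a region needed the other library alone. R then ranged from 48 to 52 and 25 to 41 in CCD841 and from 24 to 30, 30 to 45, 47 to 62 and 45 to 47 in mouse. S ranged from 2 to 4 for CCD841 H4K12bu and from 3 to 7, 4 to 5, 4 to 5 and 3 to 3 in mouse, and G from 8 to 9 for mouse H3K18bu.

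Genes with all Kbu percentiles above all Kac percentiles numbered 665 as reported, and those with all below 457. The numbers above were 178 (q below 0.05), 179 (q below 0.01), 357 (within 3 kb), 131 (no peak at 0) and 3298 to 3581 with 1 replicate left out. In the same order the numbers below were 153, 34, 632, 457 and 2268 to 2413, so that within 3 kb more genes lay below than above. With q below 0.05 the difference was 7.33 for Fos, Fosb, Junb, Jund, Atf3 and Batf and -13.8 for Fosl2, and with q below 0.01 it was 3.52 for these 7 genes, while Jun was at -19.1 and -21.1. Both positive values are those of a gene with no peak left in any library, which takes the shared rank, and the 11 passing differences are of this kind, as are both values of Batf, which passed as well. Genes with no peak at all hold the smallest p through that rank and lower every adjusted p, and with adjustment over genes with a peak, chosen after seeing the data, no gene passed in the comparison as reported. Batf changed sign under both settings and Fosl2 with q below 0.05. With H3K18 libraries alone Fosl2 was at -3.89 and Atf3 at -10.5, and with H4K12 libraries alone Jun was at 9.19. Jun ranged from -9.68 (without replicate 2) to 1.23 (without replicate 1), changing sign. Same-numbered mouse libraries did not deviate together (correlations from -0.0172 to 0.028 over the 6 pairs of groups, across 17492 genes). Libraries of both marks share mice, and which numbers share a mouse is not given in the sources used here. Under a replicate block (36 assignments, smallest exact p 0.0556) the differences keep their size by construction, 21.4 for Fos, 23.4 for Fosb and 30.7 for Junb with an exact permutation p of 0.0556 each, 33.1 for Jund (0.111), 13.7 for Atf3 (0.389), 5.67 for Fosl2 (0.389), -4.22 for Jun (0.667) and -9.41 for Batf (0.556). Of the mouse Kbu peaks near the 9 genes 88.4% had a pileup of 1, so that depth limits what their regions can show.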
